A study of Mus musculus with 3 samples.

Results

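The integrin and laminin genes of mouse sciatic nerve were examined across mesenchymal cells and cell classes of injured and uninjured nerve. They were chosen by symbol alone, as integrin alpha chains (Itga with a number or letter), integrin beta chains (Itgb1 to Itgb8) and laminin alpha, beta and gamma chains (Lama, Lamb and Lamc). The rule found 37 of the 21438 genes listed in the deposited tables, namely 18 integrin alpha, 8 integrin beta and 11 laminin chain genes. Cells were profiled by Drop-seq, which captures cells in droplets with barcoded beads and counts molecules by a unique molecular identifier (UMI).

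Each group was 1 library from adult mice. The injured beads library came from the distal segment of the sciatic nerve of Wildtype CD1 mice, collected 9 days after the nerve was resected and cleaned with myelin removal beads. The injured FACS library came from the same segment and time, from CD1 and C57BL/6 mice, with cells sorted by fluorescence in place of the beads, by a gate that the sources used here do not give. Uninjured cells made up the last group. The uninjured library came from sciatic nerve of Wildtype CD1 mice, and its table holds the cells that the authors predicted to be mesenchymal. Nerves of all 3 groups were digested with collagenase and trypsin.

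Integrins are heterodimers of an alpha and a beta chain that bind cells to matrix or to other cells, and the pair sets the ligand. Laminins are trimers of an alpha, a beta and a gamma chain and form the network of basement membranes. In peripheral nerve, Schwann cells, perineurial cells and vessels sit on such membranes, while fibroblast-like cells of the endoneurium and epineurium lie in collagen-rich matrix. Mutations of LAMA2 cause a congenital muscular dystrophy in which peripheral myelin is also affected.

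The authors' mesenchymal tables held 1289 injured cells with 4746263 UMIs (median 2798 per cell) and 880 uninjured cells with 2169121 UMIs (median 2102.5). In all, 10859939 UMIs were counted over 4300 barcodes of injured beads nerve, and 7122377 over 2000 barcodes of injured FACS nerve. The beads and FACS libraries shared 1 cell barcode. Levels are in CPM, UMIs of a gene in a pool of cells scaled to a pool total of 1e6, and ranges in brackets are 95% intervals that cover counting error only. With 1 library per group there is no replicate check and no p-value, and in pooled cells a lower count per cell and fewer cells that make a transcript cannot be told apart. UMIs were counted from transcript ends, so CPM is not scaled by gene length. Rows were found for all 37 members in the beads tables, for 36 in the FACS table (Lama1 had none and was given no value there) and for 34 in the uninjured table, where Itgad, Itgax and Itgb6 were read as 0 UMIs.

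The promoter stretches of 4 members on which the results turn are shown, since Lama2 and Lamb2 were lower in injured mesenchymal cells, Lamb1, the gene of the other abundant beta chain, was not, and Itgb8 stood apart in Schwann cell-like cells. Each is the 250 bases before the RefSeq gene start on GRCm38.p6, written 5′ to 3′ on the gene's strand. Capitals mark matches to 5 motifs, each searched on both strands, and none of the matches shown overlapped another. The GC box was read as GGGCGG, the core that Sp1-like factors are known to bind. The AP-1 site was read as TGANTCA, the element known for Fos and Jun dimers. The E-box was read as CACGTG, the form known for Myc and its relatives. The TATA box was read as TATAAA, and the CCAAT box by the letters of its name.
Lama2, chr10:27616943-27617192, minus strand: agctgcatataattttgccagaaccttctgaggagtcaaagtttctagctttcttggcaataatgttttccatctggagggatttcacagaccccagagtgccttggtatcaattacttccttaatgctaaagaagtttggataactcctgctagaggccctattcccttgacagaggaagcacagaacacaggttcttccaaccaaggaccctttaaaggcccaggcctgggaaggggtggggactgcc
Lamb2, chr9:108479612-108479861, plus strand: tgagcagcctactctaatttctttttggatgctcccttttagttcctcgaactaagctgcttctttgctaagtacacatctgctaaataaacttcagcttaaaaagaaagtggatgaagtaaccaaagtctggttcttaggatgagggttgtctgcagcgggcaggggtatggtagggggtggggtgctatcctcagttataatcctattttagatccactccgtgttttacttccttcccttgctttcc
Lamb1, chr12:31265043-31265292, plus strand: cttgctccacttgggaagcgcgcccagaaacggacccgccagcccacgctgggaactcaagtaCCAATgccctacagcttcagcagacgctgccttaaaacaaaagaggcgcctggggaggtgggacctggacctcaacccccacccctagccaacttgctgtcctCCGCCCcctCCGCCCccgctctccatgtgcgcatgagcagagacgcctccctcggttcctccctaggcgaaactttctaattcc
Itgb8, chr12:119238277-119238526, minus strand: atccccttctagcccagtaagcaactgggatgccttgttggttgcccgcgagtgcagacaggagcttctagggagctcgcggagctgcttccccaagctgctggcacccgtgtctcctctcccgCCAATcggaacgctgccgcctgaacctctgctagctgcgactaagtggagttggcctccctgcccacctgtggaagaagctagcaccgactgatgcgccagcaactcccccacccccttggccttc
The Lamb1 stretch held 2 GC boxes on the opposite strand and 1 CCAAT box, the Itgb8 stretch held 1 CCAAT box, and the Lama2 and Lamb2 stretches held none of the 5 motifs. Of 32851 such stretches, 32.7% held a GC box, 33.8% a CCAAT box, 12.4% a TATA box, 6.75% an AP-1 site and 6.02% an E-box. Of the 26 stretches listed for 23 members, 9 held a GC box, 4 a CCAAT box, 1 (Itgax) an AP-1 site, and 0 an E-box or a TATA box. GC content was 62.0% for Lamb1, 62.4% for Itgb8, 47.2% for Lama2 and 43.6% for Lamb2, against a median of 52.4% over all stretches. GENCODE places the starts of these 4 genes elsewhere than RefSeq, so each stretch lies at least in part inside the GENCODE span of its gene. A match describes letters in the window and not binding.

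Injury and mesenchymal integrins were compared first, in the authors' mesenchymal cells. Itgb1, the beta chain shared by the collagen, fibronectin and laminin receptors, was the most abundant integrin there, and Itgb4, which pairs with the alpha 6 chain to bind laminin in epithelia and in perineurial and Schwann cells, was the integrin that passed the size rule. The rule asked for at least 50 CPM in 1 pool, a ratio of at least 2-fold and an interval without 1. Of 13 members past 50 CPM, 0 were higher and 3 were lower in injured cells, namely Itgb4, Lama2 and Lamb2. Over all 3964 genes past 50 CPM, 8.17% were higher and 7.14% lower. Scaling by TMM moved all log2 ratios by -0.13 and gave 252 genes higher and 349 lower over all genes, in place of 324 higher and 283 lower.

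Itgb1 had 938 CPM in injured cells (910 to 966) and 814 CPM in mesenchymal-like cells of the injured FACS library (788 to 842), against 554 CPM in uninjured cells (523 to 586). Both injured pools lay above the uninjured one, with a log2 ratio of 0.76 (0.67 to 0.85) in the beads library, which is under 2-fold. Itgav, the alpha chain of RGD-binding integrins, had 106 CPM in injured cells, 63.9 CPM in the FACS library and 75.1 CPM in uninjured cells, so the injured pools lay on either side of the uninjured one. Itga5, which pairs with Itgb1 as the fibronectin receptor, had 51.8 CPM in injured cells and 45.2 CPM in the FACS library, against 28.1 CPM in uninjured cells (log2 0.88 in the beads library, 0.47 to 1.31). Itga1, a collagen receptor chain, had 61.3 CPM in injured cells, 42.4 CPM in the FACS library and 37.3 CPM in uninjured cells (log2 0.72, 0.36 to 1.09). Itga9, whose receptor binds tenascin C and osteopontin, had 52.9 CPM in injured cells, 32.8 CPM in the FACS library and 32.7 CPM in uninjured cells (log2 0.69, 0.31 to 1.09). The direction turned in cells without markers of other classes for both Itga1 (6 UMIs in injured and 4 in uninjured cells) and Itga9 (3 and 2 UMIs), with a log2 ratio of -0.52 each that rests on these few UMIs. It also turned for Itga1 with 3 subclasses at the same weight (log2 -0.22). For Itga1 and Itga9 the FACS library lay near the uninjured level, and Itga5 was above it in both injured libraries.

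Itgb5, a partner of the alpha v chain that binds vitronectin, had 52.5 CPM in injured cells, 68.9 CPM in the FACS library and 52.6 CPM in uninjured cells. Itga6, the laminin receptor chain, had 72.3 CPM in injured cells, 42.2 CPM in the FACS library and 73.3 CPM in uninjured cells. Neither differed between the injured beads and uninjured pools beyond counting error. Itgb4 had 32.9 CPM in injured cells (27.9 to 38.4) and 8.20 CPM in the FACS library (5.71 to 11.4), against 126 CPM in uninjured cells (111 to 142). Its log2 ratio was -1.94 (-2.23 to -1.65) in the beads library and -3.95 (-4.50 to -3.44) in the FACS library. The sum of 12 perineurial markers was 616 CPM in injured cells and 448 CPM in the FACS library (11 of the 12 with a row there), against 744 CPM in uninjured cells, with no marker at 0.

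Below 50 CPM, some of the other integrins had ratios with intervals away from 1. Itga10, a collagen receptor chain of cartilage, had 20.9 CPM in injured cells (99 UMIs), with 32 UMIs in the FACS library, against 2.77 CPM from 6 UMIs in uninjured cells. Itga11, a collagen receptor chain of fibroblasts, had 16.4 CPM in injured cells and 15.7 CPM in the FACS library, against 43.8 CPM in uninjured cells (log2 -1.41, -1.87 to -0.97 in the beads library). Itga7, a laminin receptor chain of muscle, had 19.4 CPM in injured cells and 5.62 CPM in the FACS library, against 36.0 CPM in uninjured cells. Itga2, which binds collagen, had 2.32 CPM in injured cells and 0.234 CPM (1 UMI) in the FACS library, against 12.0 CPM in uninjured cells. Itgb3 had 35.2 CPM in injured cells, 19.7 CPM in the FACS library and 29.0 CPM in uninjured cells, and Itgb8, a partner of the alpha v chain that activates latent TGF-beta, had 30.3, 18.7 and 18.9 CPM in the same order. Itga2b reached 12.6 CPM in injured cells and 10.6 CPM in uninjured cells. Itga3, Itga4, Itga8, Itgad, Itgae, Itgal, Itgam, Itgax, Itgb2, Itgb6 and Itgb7, among them the leukocyte integrins, were below 10 CPM in injured beads and uninjured cells. Itgam had 19.2 CPM in the FACS library, where mononuclear phagocyte markers summed to 1475 CPM with 0 of 19 at 0; their part was not tested.

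**Figure D1:**
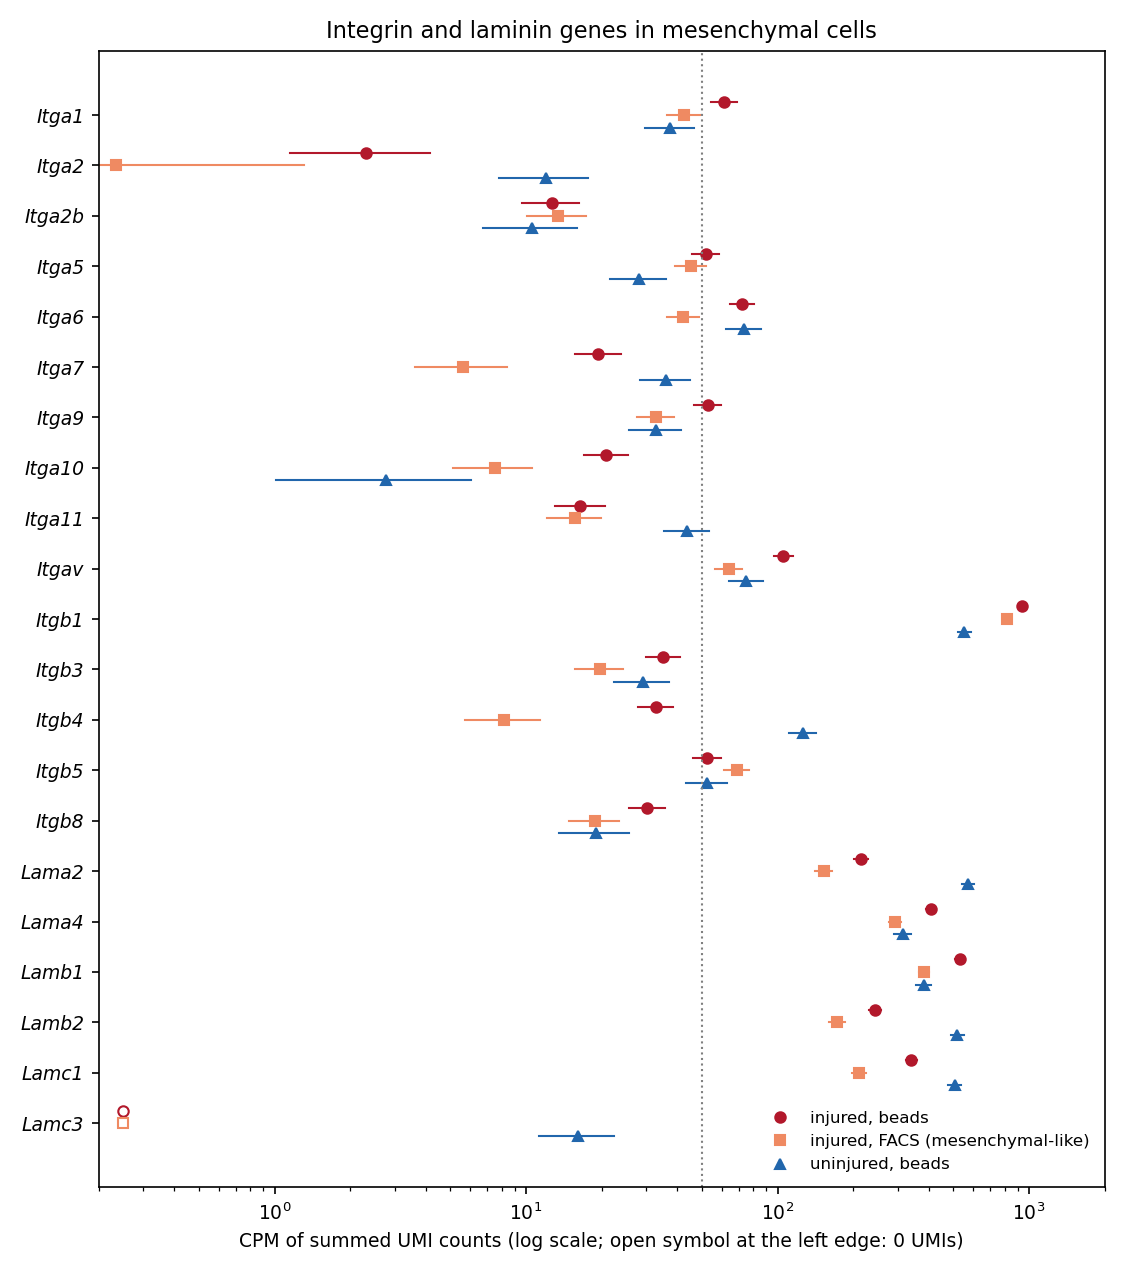
CPM (x axis, log scale) of 21 members with at least 10 CPM in injured or uninjured mesenchymal cells, with 95% counting intervals as lines and the 50 CPM floor dotted. Both injured pools of Lama2, Lamb2, Lamc1 and Itgb4 lie left of the uninjured pool, and both injured pools of Itgb1 lie right of it.

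Laminin chains were compared in the same cells. The abundant chain genes were Lama2, Lama4, Lamb1, Lamb2 and Lamc1, each past 50 CPM in all 3 mesenchymal pools. Lama2 and Lamb2 passed the size rule as lower in injured cells, Lamc1 did so in the FACS library alone, and Lama4 and Lamb1 were not called in either library.

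Lama2, the alpha 2 chain of merosin, had 215 CPM in injured cells (202 to 229) and 153 CPM in the FACS library (141 to 165), against 573 CPM in uninjured cells (541 to 605). The log2 ratio was -1.41 (-1.53 to -1.29) in the beads library and -1.91 (-2.05 to -1.77) in the FACS library. Lamb2, the beta 2 chain, had 244 CPM in injured cells (231 to 259) and 172 CPM in the FACS library (160 to 185), against 518 CPM in uninjured cells (488 to 549). Its log2 ratio was -1.08 (-1.20 to -0.96) in the beads library and -1.60 (-1.73 to -1.46) in the FACS library. The Lamb2 call in the beads library was lost when each cell counted equally (log2 -0.83), in cells without markers of other classes (-0.99), and with endoneurial-like, epineurial-like and perineurial-like cells at the same weight (-0.30). Both genes lay lower in each injured library than in uninjured cells.

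Lamc1, the gamma 1 chain shared by most laminins, had 340 CPM in injured cells and 212 CPM in the FACS library, against 507 CPM in uninjured cells, with log2 ratios of -0.57 (-0.69 to -0.46) and -1.27 (-1.39 to -1.14). Lamb1, the beta 1 chain, had 530 CPM in injured cells and 382 CPM in the FACS library, against 382 CPM in uninjured cells, with log2 ratios of 0.47 (0.36 to 0.59) and -0.01 (-0.13 to 0.11). Lama4, the alpha 4 chain of vessel and nerve basement membranes, had 407 CPM in injured cells and 294 CPM in the FACS library, against 315 CPM in uninjured cells. Lamb1 was thus the most abundant laminin chain of injured cells, and Lama2 that of uninjured cells.

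Lamc3, the gamma 3 chain, had 0 UMIs in the injured beads and FACS mesenchymal pools, against 35 UMIs (16.1 CPM, 11.2 to 22.4) in uninjured cells. Taken against a floor of 3 UMIs over the injured pool, it was at least 25.5-fold lower in injured cells. Lamb3, a beta chain of epithelial laminin, had 4.21 CPM in injured cells and 9.22 CPM in uninjured cells. Lama5 had 8.64 CPM in injured cells and 8.76 CPM in uninjured cells, and Lama1 and Lama3 had 4 UMIs or fewer in each pool.

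Set against uninjured cells, 10 members passed 50 CPM with the FACS library, of which 0 were higher and 4 were lower (Itgb4, Lama2, Lamb2 and Lamc1); of the 3955 genes tested, 10.7% were higher and 8.45% lower. Both comparisons use the same uninjured library, so their calls are not independent. Against mesenchymal-like cells of the beads library, the FACS library had 0 of 12 members higher and 0 lower, where 3.28% of 3930 genes were higher and 1.45% lower. The members' median log2 ratio there was -0.51 over the 20 with at least 10 CPM, against -0.04 over all genes. Strain, isolation and gate differ together between the injured libraries and cannot be told apart.

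Over members with at least 10 CPM, the median log2 ratio of injured to uninjured mesenchymal cells was 0.28 for 15 integrins and -1.08 for 7 laminin chains with Lamc3 at its bound, beside 0.19 over 9783 genes. With Lamc3 left out the laminin median was -0.83. The sums of marker genes of other cells also differed between the pools. Schwann cell markers summed to 87.6 CPM in injured cells and 358 CPM in uninjured cells (1 of 12, Fabp7, at 0 there), pericyte or smooth muscle cell markers to 365 and 504 CPM, and endothelial cell markers to 210 and 288 CPM. Mononuclear phagocyte markers summed to 423 CPM in injured cells and 39.2 CPM in uninjured cells, where 8 of 19 were at 0. Erythroid markers summed to 112 CPM in injured cells and 1612 CPM in uninjured cells, and 12 genes of dissociation stress to 10744 and 27665 CPM. Their part in the results was not tested.

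The mesenchymal cells were then split into subclasses, by clustering both tables together without the 37 members. Endoneurial-like cells numbered 247 in the injured and 427 in the uninjured table, epineurial-like cells 195 and 378, and perineurial-like cells 68 and 66. The injured table also held 419 differentiating-like cells and the uninjured table held 2 of them, and 360 injured and 7 uninjured cells stayed unnamed. The members differed by subclass. Lama2 was lower in injured endoneurial-like cells and Itgb4 and Lamb3 in injured perineurial-like cells, while Lamb1 was higher in injured epineurial-like and perineurial-like cells and Itga9 in injured endoneurial-like and perineurial-like cells.

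In endoneurial-like cells, 8 members passed 50 CPM, with 1 higher and 1 lower; among 3733 genes tested 10.7% were higher and 9.4% lower. Lama2 had 340 CPM in injured, against 911 CPM in uninjured endoneurial-like cells (log2 -1.42, -1.57 to -1.27). Itga9 had 63.1 CPM in injured, against 20.7 CPM in uninjured endoneurial-like cells (log2 1.61, 0.95 to 2.33). Itgb1 (934 and 552 CPM, injured before uninjured) and Itgav (127 and 71.0 CPM) had log2 ratios of 0.76 and 0.84, short of 2-fold. Itga10 had 45.3 CPM from 74 UMIs in injured cells and 1 UMI in uninjured cells of this subclass, below the floor for a call. Lamc3 had 0 UMIs in injured and 33 UMIs (29.7 CPM) in uninjured endoneurial-like cells, so that 33 of its 35 uninjured UMIs lay in this subclass. Stress genes summed to 13988 CPM in injured, against 43672 CPM in uninjured endoneurial-like cells, and their part in these differences was not tested.

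In epineurial-like cells, 10 members passed 50 CPM, with 1 higher and 0 lower; among 3726 genes tested 4.21% were higher and 2.12% lower. Lamb1 had 469 CPM in injured, against 188 CPM in uninjured epineurial-like cells (log2 1.32, 1.02 to 1.63). Lama2 had 202 CPM in injured, against 237 CPM in uninjured epineurial-like cells, a difference within counting error (log2 -0.23, -0.62 to 0.14). Itga11 had higher values in this subclass than in endoneurial-like cells of both tables. It had 74.9 CPM in injured, against 80.5 CPM in uninjured epineurial-like cells, and 8.57 and 19.8 CPM in endoneurial-like cells of the same order. It did not differ with injury inside the epineurial-like subclass beyond counting error. In endoneurial-like cells its injured value was under the uninjured one, both below 50 CPM. Its value over all injured mesenchymal cells was lower.

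Perineurial-like cells had the highest values of the laminin receptor chains Itga6 and Itgb4 and of Lamb2 among the subclasses. There, 16 members passed 50 CPM, with 2 higher and 2 lower; among 4777 genes tested 5.59% were higher and 8.0% lower. Itgb4 had 645 CPM in injured, against 1822 CPM in uninjured perineurial-like cells (log2 -1.50, -1.81 to -1.19), and 6.91 CPM or less in injured cells of the other 3 named subclasses. Lamb3 had 44.3 CPM from 9 UMIs in injured, against 137 CPM from 19 UMIs in uninjured perineurial-like cells (log2 -1.63, -2.96 to -0.42). Itga6, the partner of Itgb4, had 773 CPM in injured, against 976 CPM in uninjured perineurial-like cells, an interval of the log2 ratio that holds 0 (-0.68 to 0.01). Itga7 had 266 CPM in injured, against 528 CPM in uninjured perineurial-like cells (log2 -0.99, just short of 2-fold).

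Lamb1 had 271 CPM in injured, against 50.6 CPM in uninjured perineurial-like cells, where 7 UMIs were counted (log2 2.42, 1.28 to 3.80). Itga9 had 221 CPM (45 UMIs) in injured, against 13 UMIs in uninjured perineurial-like cells (log2 1.24, 0.32 to 2.25), a call that was lost when cells were given subclasses by marker score. Lamb2 had 1255 CPM in injured, against 1345 CPM in uninjured perineurial-like cells, within counting error of each other. Lama5 reached 98.4 CPM in injured, against 79.5 CPM in uninjured perineurial-like cells. The 12 perineurial markers themselves summed to 4877 CPM in the injured and 7959 CPM in the uninjured pool, and their part in the lower values of Itgb4 and Lamb3 was not tested.

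The injured differentiating-like cells, named from Dlk1, Mest and Postn among other markers, had 993 CPM of Itgb1, 577 CPM of Lamb1 and 380 CPM of Lama4. Their Lama2 (150 CPM) and Lamb2 (135 CPM) values lay under those of injured endoneurial-like cells (340 and 244 CPM). Lamb2 passed the size rule in 0 of the 3 subclasses with cells in both tables. In the FACS library, no cluster was named perineurial-like. Its 99 endoneurial-like cells had 259 CPM of Lama2 and 419 CPM of Lamb1, and its 155 epineurial-like cells 176 and 363 CPM.

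**Figure D2:**
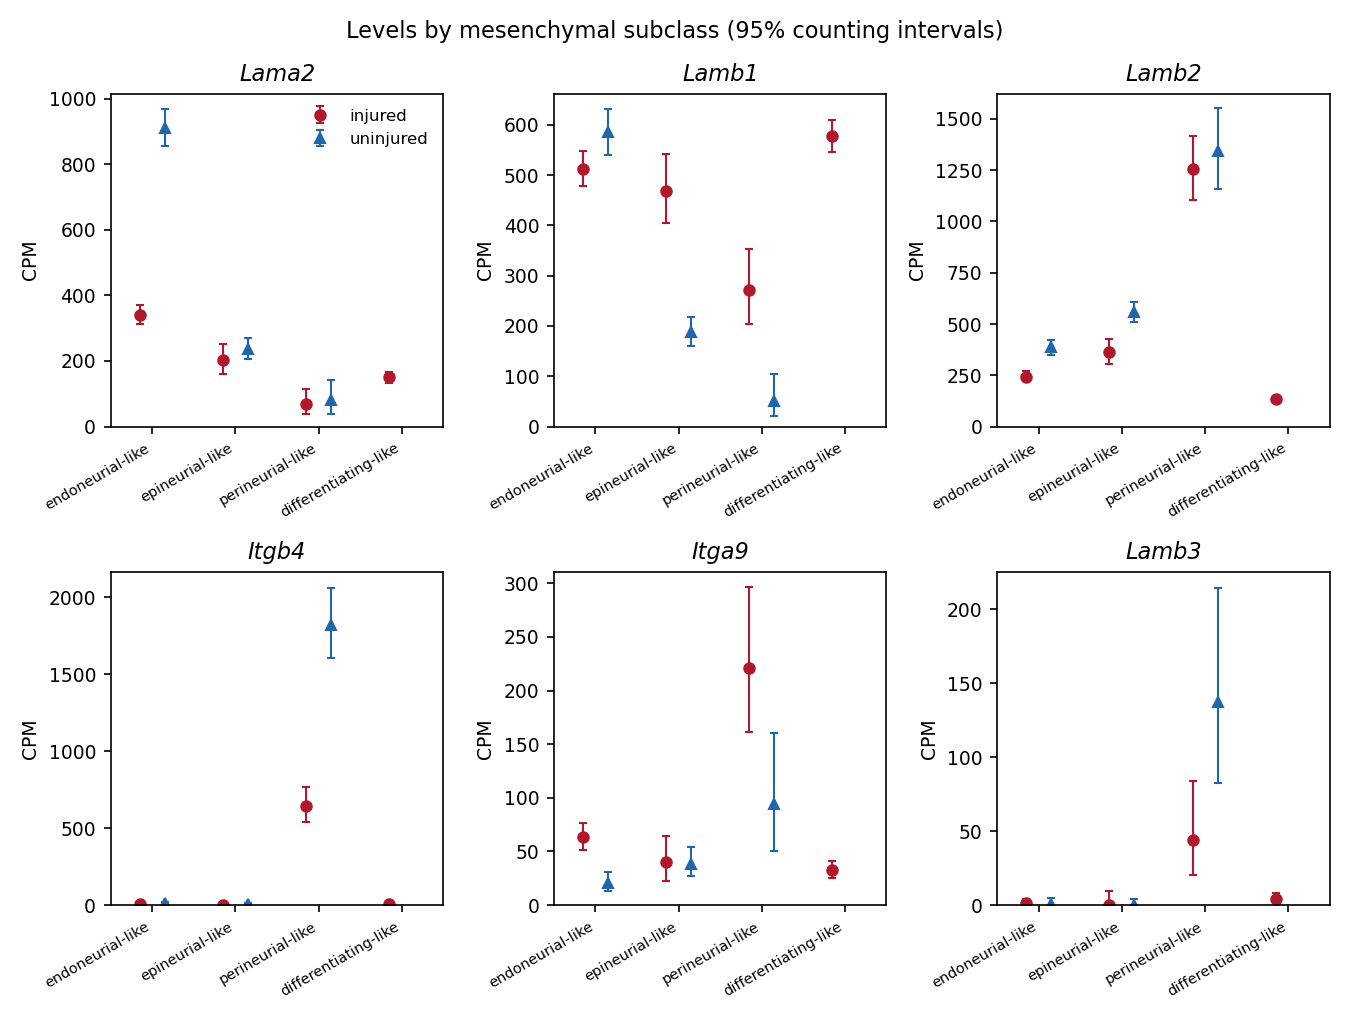
CPM (y axis, linear from 0) of 6 members in mesenchymal subclasses, with injured cells as circles, uninjured cells as triangles and 95% counting intervals as bars. Lama2 differs in endoneurial-like cells (340 against 911 CPM), Lamb1 in epineurial-like and perineurial-like cells, and Itgb4 in perineurial-like cells (645 against 1822 CPM); uninjured differentiating-like cells (2 cells) are not drawn.

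The next comparison set the cell classes of the injured nerve side by side, each library on its own. Classes were named from marker lists, with the 37 members left out of the clustering. The beads library held 1005 mesenchymal-like, 581 endothelial cell-like, 518 Schwann cell-like, 508 mononuclear phagocyte-like, 390 B cell-like, 290 pericyte or smooth muscle cell-like, 211 T or NK cell-like, 124 neutrophil-like and 36 mast cell-like cells. The FACS library held 702 mononuclear phagocyte-like, 663 mesenchymal-like, 94 Schwann cell-like, 83 endothelial cell-like, 20 mast cell-like and 16 neutrophil-like cells. A member was called for a class if it had at least 50 CPM there, at least 2-fold over the next class and an interval of that ratio without 1. In the beads library 24 members passed the floor and 7 were called (Itga1, Itga2b, Itga5, Itga8, Itga9, Itgax and Itgb8), where 24.8% of 7974 genes were called. In the FACS library 22 passed and 9 were called (Itga2b, Itga5, Itga7, Itgax, Itgb3, Itgb5, Itgb7, Lama2 and Lama5), where 24.2% of 7104 genes were called. Itga2b, Itga5 and Itgax were called for the same class in both libraries.

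Itgb8 was called for Schwann cell-like cells, at 1313 CPM (1254 to 1373) in the beads library, 12.5-fold above the next class (neutrophil-like, 105 CPM from 9 UMIs). It had 740 CPM (642 to 849) in Schwann cell-like cells of the FACS library and 3.23 to 18.7 CPM in endothelial cell-like, mononuclear phagocyte-like and mesenchymal-like cells. The next class there was neutrophil-like, at 219 CPM from 2 of 9131 UMIs, and Itgb8 was not called because the interval of the log2 ratio held 0 (-0.11 to 4.81). Itga7 was highest in Schwann cell-like cells too, at 205 CPM in the beads library. Pericyte or smooth muscle cell-like cells there had 174 CPM, within counting error of it (log2 0.24, -0.08 to 0.57). In the FACS library Itga7 had 265 CPM in Schwann cell-like cells, beside 55.0 CPM in endothelial cell-like cells. No pericyte or smooth muscle cell-like cluster was named in that library. Itgav had 164 CPM in Schwann cell-like and 106 CPM in mesenchymal-like cells of the beads library, and 58.1 and 63.9 CPM in those of the FACS library. Itgb4 was shared by endothelial cell-like (78.6 CPM) and Schwann cell-like cells (77.2 CPM) of the beads library, and had 68.9 CPM in Schwann cell-like cells of the FACS library. Itga2 reached 40.0 CPM in Schwann cell-like cells of the beads library and 39.9 CPM in those of the FACS library, below the floor.

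Vessel-associated classes held other integrins. Itga1 had 425 CPM in pericyte or smooth muscle cell-like cells of the beads library, 4.79-fold above endothelial cell-like cells (88.7 CPM), and Itga8, an RGD-binding chain of smooth muscle, had 89.2 CPM there, 16.8-fold above endothelial cell-like cells. No cluster of the FACS library was named pericyte or smooth muscle cell-like, so neither had that comparison there. Itga5 was called for endothelial cell-like cells, with 109 CPM in the beads library and 97.0 CPM in the FACS library, above mesenchymal-like cells (51.3 and 45.2 CPM in the same order). Itga6 had 278 CPM in endothelial cell-like and 243 CPM in Schwann cell-like cells of the beads library, and 149 and 134 CPM in those of the FACS library. Itgb1 was highest in pericyte or smooth muscle cell-like (2185 CPM), Schwann cell-like (1859 CPM) and endothelial cell-like cells (1052 CPM) of the beads library.

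Leukocyte integrins lay in leukocyte classes. Itgax, which encodes CD11c, had 152 CPM in mononuclear phagocyte-like cells of the beads library and 82.1 CPM in those of the FACS library, and 0.669 and 2.58 CPM in mesenchymal-like cells. Itgam, which encodes CD11b, had 421 CPM in mononuclear phagocyte-like and 419 CPM in neutrophil-like cells of the beads library. Itgb2, the common beta chain of leukocyte integrins, had 268 CPM in mononuclear phagocyte-like and 253 CPM in T or NK cell-like cells, and Itgal, its partner on lymphocytes, had 153 CPM in T or NK cell-like and 128 CPM in neutrophil-like cells. Itgb7, a partner of the alpha 4 and alpha E chains, had 387 CPM in T or NK cell-like and 303 CPM in mast cell-like cells. Itga4 ran from 81.9 to 165 CPM in leukocyte classes of the beads library and had 104 CPM in pericyte or smooth muscle cell-like cells. Itgb5 was highest in mononuclear phagocyte-like cells of both libraries, at 189 CPM in the beads library and 169 CPM in the FACS library.

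Some class calls rest on few UMIs. Itga2b, the alpha IIb chain of platelets, was called for mast cell-like cells at 143 CPM from 8 UMIs in the beads library and 215 CPM from 11 UMIs in the FACS library, and Itga9 was called for them in the beads library from 8 UMIs. In the FACS library Itgb7 was called from 5 UMIs (mast cell-like) and Itgb3 from 3 UMIs (neutrophil-like). With classes of at least 50 cells, an alternative chosen after seeing the data, 6 members were called in the beads library (26.6% of all genes), Itga2b and Itga9 no longer and Itgb7 for T or NK cell-like cells.

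Laminin chains were spread over several classes. In the beads library, 6 chains passed the floor and 0 were called. Lama4 had 407 CPM in mesenchymal-like, 353 CPM in Schwann cell-like and 274 CPM in pericyte or smooth muscle cell-like cells, and Lamb1 had 533, 427 and 135 CPM in the same classes. Lamc1 had 340 CPM in mesenchymal-like, 304 CPM in pericyte or smooth muscle cell-like and 270 CPM in Schwann cell-like cells. Lama2 had 217 CPM in mesenchymal-like and 131 CPM in Schwann cell-like cells of the beads library, while in the FACS library it had 153 CPM in mesenchymal-like and 14.5 CPM (4 UMIs) in Schwann cell-like cells and was called. Lama5, the alpha 5 chain of vascular and epithelial basement membranes, had 116 CPM in endothelial cell-like and 105 CPM in pericyte or smooth muscle cell-like cells of the beads library, and 74.4 CPM in endothelial cell-like cells of the FACS library, where it was called. That FACS cluster was led by the pericyte gene Rgs5, and its 12 pericyte or smooth muscle cell markers summed to 4484 CPM with 0 at 0, beside 8183 CPM of endothelial markers; their part in the Lama5 call was not tested. Lamb2 had 250 CPM in pericyte or smooth muscle cell-like, 242 CPM in mesenchymal-like and 115 CPM in endothelial cell-like cells of the beads library. Lama3, of epithelial laminin, had 20.7 CPM in endothelial cell-like cells of the beads library and 19.4 CPM in those of the FACS library, and Lamc3 had 31.8 CPM (20 UMIs) in pericyte or smooth muscle cell-like cells and 0 UMIs in every other named class of the beads library.

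**Figure D3:**
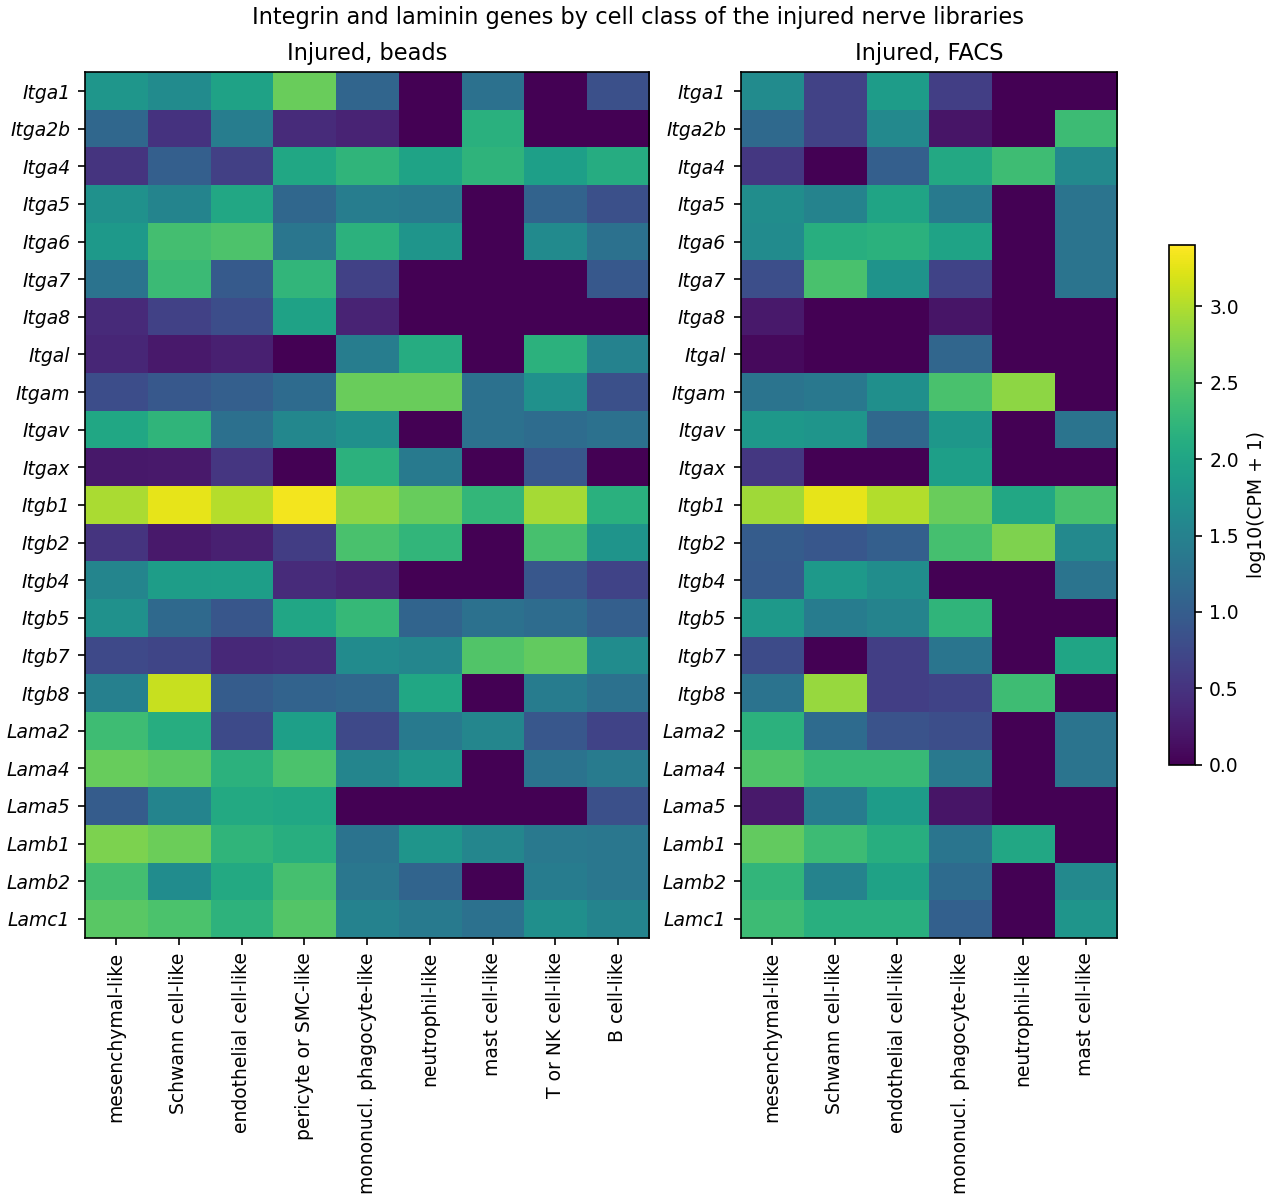
Colour gives log10(CPM + 1) of members (rows) in the named classes (columns) of the injured beads library (left) and the injured FACS library (right). Itgb8 stands out in Schwann cell-like cells of both libraries, and leukocyte integrins in phagocyte-like, neutrophil-like and T or NK cell-like cells. Laminin chains spread over mesenchymal-like, Schwann cell-like and vessel classes. The FACS neutrophil-like column rests on 9131 UMIs.

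Within classes of the beads library that held a pair of clusters, levels differed between the clusters; these pairs were set side by side after their values had been seen, and clusters are named by leading genes. Schwann cell-like cells formed a cluster led by Epha5, Pex5l and Btc (295 cells) and a cluster with Sostdc1, Egfl8 and Gjc3 among its leading genes (223 cells). Itgb8 had 1830 CPM in the Epha5 cluster and 895 CPM in the Sostdc1 cluster (log2 1.03, 0.90 to 1.17), and Itga7 had 289 and 137 CPM (log2 1.08, 0.73 to 1.44). Laminin chains ran the other way. Lamc1 had 73.9 CPM in the Epha5 cluster and 427 CPM in the Sostdc1 cluster (log2 -2.53, -3.00 to -2.09), Lama2 had 48.7 and 198 CPM, Lama4 162 and 507 CPM, and Lamb1 215 and 597 CPM. Other integrins ran that way too, beyond counting error. Itgav had 91.2 CPM in the Epha5 cluster and 223 CPM in the Sostdc1 cluster, Itga1 had 14.2 and 64.7 CPM, Itga6 186 and 289 CPM, and Itgb1 1556 and 2102 CPM. The 10 mesenchymal markers summed to 4880 CPM in the Epha5 cluster and 18019 CPM in the Sostdc1 cluster, with none at 0 in either, and their part in the laminin values was not tested.

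Pericyte or smooth muscle cell-like cells formed a cluster led by Rgs5, Serpina1b and Actg2 (242 cells) and a cluster led by Myh11, Pln and Lmod1 (48 cells). Itga1 had 490 CPM in the Rgs5 cluster and 161 CPM in the Myh11 cluster (log2 1.61, 0.95 to 2.34). Itga8 had 35.7 CPM in the Rgs5 cluster and 306 CPM in the Myh11 cluster (log2 -3.10, -3.99 to -2.25). Lama5 had 69.5 and 249 CPM in these clusters and Lamb2 205 and 434 CPM, both higher in the Myh11 cluster, while Lama2 had 52 UMIs (103 CPM) in the Rgs5 cluster and 0 in the Myh11 cluster. Lamb1 had 165 CPM in the Rgs5 cluster and 16.1 CPM (2 UMIs) in the Myh11 cluster. The mesenchymal markers summed to 10349 CPM in the Rgs5 cluster and 2027 CPM in the Myh11 cluster, and their part in the Lama2 and Lamb1 values was not tested.

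Mononuclear phagocyte-like cells formed a cluster led by Ccr2, Retnla and Ms4a6c (330 cells) and a cluster led by Mmp12, Gpnmb and Lyz2 (178 cells). Itgam had 604 CPM in the Ccr2 cluster and 270 CPM in the Mmp12 cluster (log2 1.16, 0.84 to 1.48), and Itga4 had 236 and 106 CPM (log2 1.15, 0.63 to 1.67). Itgb7 had 80.3 CPM in the Ccr2 cluster and 10.6 CPM (5 UMIs) in the Mmp12 cluster. Itgax ran the other way, at 72.5 CPM in the Ccr2 cluster and 217 CPM in the Mmp12 cluster (log2 -1.58, -2.24 to -0.97). Itgb2, Itgb5, Itga6 and Itgb1 did not differ between the clusters beyond counting error.

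**Figure D4:**
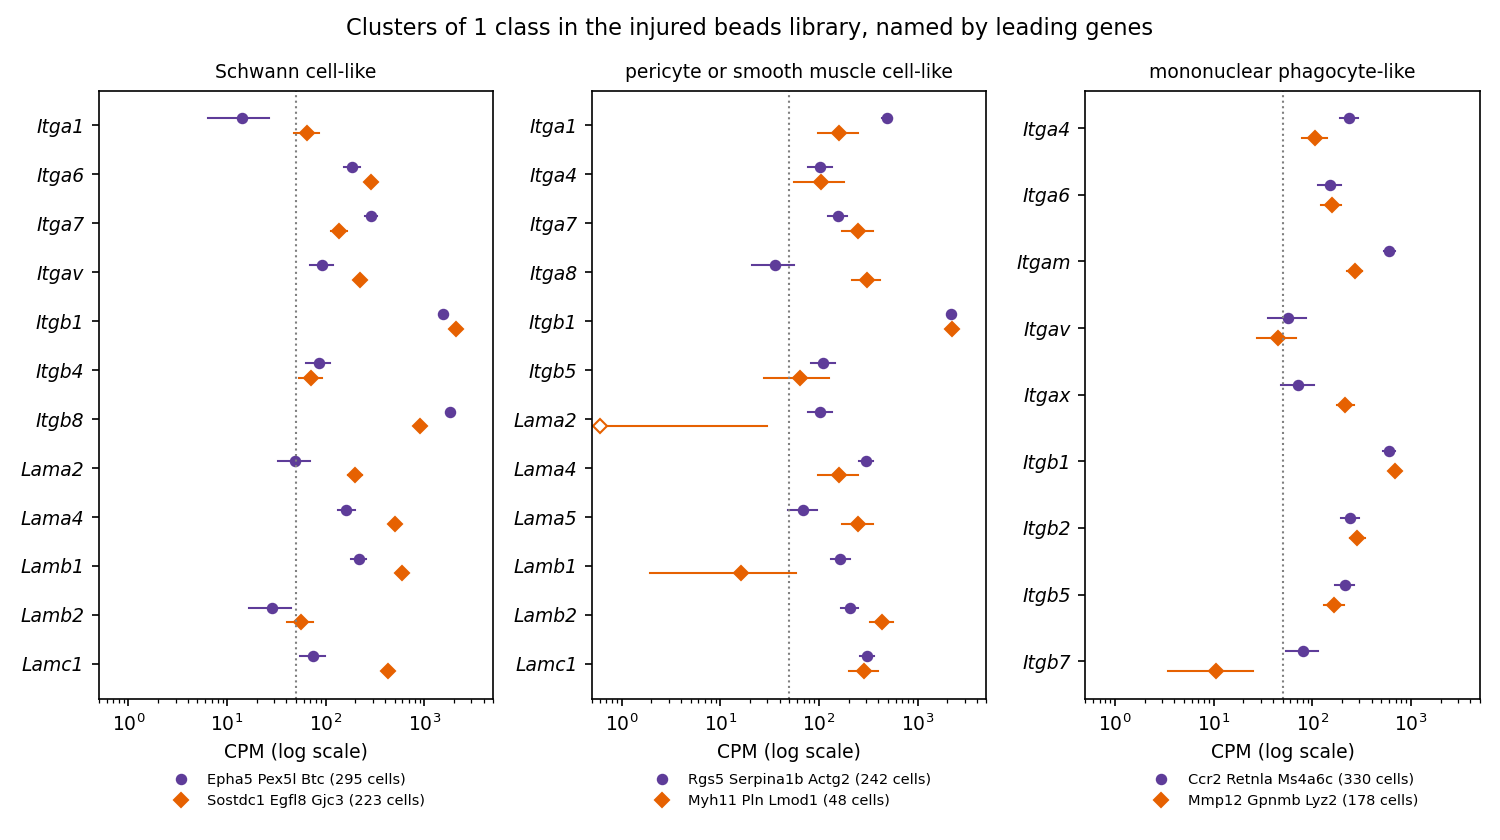
CPM (x axis, log scale) of members with at least 50 CPM in 1 cluster of a pair, for 3 classes of the injured beads library; circles are the larger and diamonds the smaller cluster, lines are 95% counting intervals, and the open symbol marks 0 UMIs. Laminin chains lie to the right in the Sostdc1 cluster of Schwann cell-like cells, and Itga8 and Lama5 in the Myh11 cluster.

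Genes that share basement membranes, ligands or adaptors with the members were read from 3 lists, in injured against uninjured mesenchymal cells. Of 12 basement membrane genes past 50 CPM, 1 was higher and 3 were lower in injured cells, beside 8.17% higher and 7.14% lower over all genes tested, with a median log2 ratio of -0.33 over the 18 genes with at least 10 CPM. Col18a1, the source of endostatin, was higher (422 CPM in injured, against 138 CPM in uninjured cells, log2 1.61, 1.44 to 1.80). Lower were Smoc2, a SPARC-related matrix protein (1099 CPM in injured, against 3716 CPM in uninjured cells), the collagen IV chain gene Col4a5 (35.8 and 103 CPM) and Col15a1 (699 and 1540 CPM). Sparc, the most abundant gene of the list (12149 CPM in injured, against 16308 CPM in uninjured cells), was not called. Nor was Nid1, the nidogen that links laminin to collagen IV (982 and 1090 CPM). Hspg2, which encodes perlecan, and the main collagen IV genes Col4a1 and Col4a2 had log2 ratios of 0.09, 0.33 and 0.52.

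Of 14 integrin ligand genes past 50 CPM, 3 were higher and 2 were lower, beside the same shares over all genes (8.17% and 7.14%), with a median log2 ratio of 0.47 over 17 genes. The higher ones were the tenascin C gene Tnc (log2 7.21), the osteopontin gene Spp1 (log2 3.23) and the periostin gene Postn (log2 2.83). Postn also belongs to the differentiating-like markers, which summed to 7050 CPM in injured, against 887 CPM in uninjured cells. The lower ones were the vitronectin gene Vtn (78.2 CPM in injured, against 172 CPM in uninjured cells) and Jam2, a junctional adhesion molecule (30.8 and 127 CPM). Fn1, encoding fibronectin, had 3247 CPM in injured, against 1708 CPM in uninjured cells (log2 0.93, 0.88 to 0.98), just under 2-fold. The 3 most abundant ligand genes, the fibrillar collagen genes Col3a1, Col1a2 and Col1a1, were not called.

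Of 16 adhesion adaptor genes past 50 CPM, 2 were higher and 0 were lower, which is near the shares over all genes (8.17% and 7.14%), with a median log2 ratio of 0.21 over 22 genes. These were Tln2, a talin that activates integrins (97.8 CPM in injured, against 20.3 CPM in uninjured cells, log2 2.27, 1.82 to 2.75), and the alpha-actinin gene Actn1 (185 and 50.3 CPM, log2 1.88, 1.59 to 2.18). The ubiquitous talin gene Tln1 (136 CPM in injured, against 125 CPM in uninjured cells) and the kindlin gene Fermt2 (230 and 237 CPM) were not called.

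**Figure D5:**
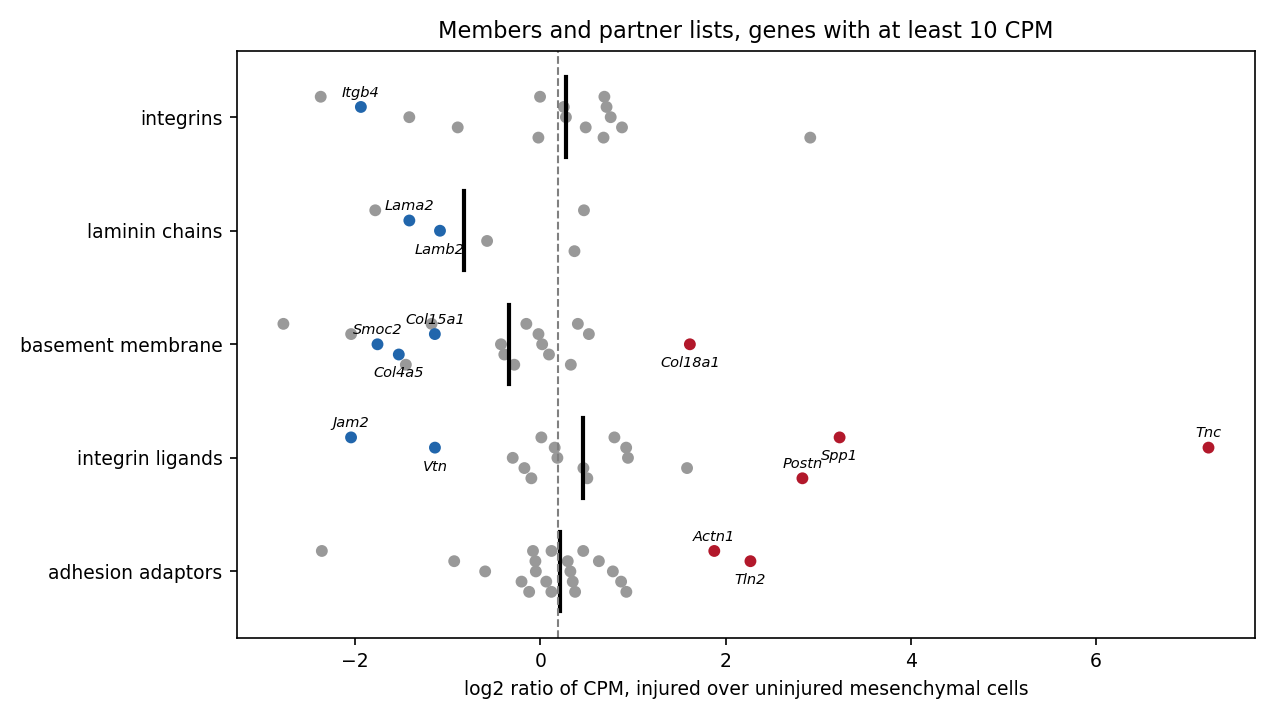
Log2 ratio of CPM in injured over uninjured mesenchymal cells (x axis) for integrins, laminin chains and 3 lists of related genes with at least 10 CPM; red genes were higher and blue genes lower by the size rule, bars are list medians and the dashed line is the median of all genes (0.19). Laminin chains lie mostly left of the dashed line, and Lamc3, with 0 UMIs in injured cells, is not drawn.

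On GRCm38, Lama2 lies on chromosome 10 from 26980036 to 27619758 (minus strand), Lamb2 on chromosome 9 from 108479736 to 108490530 (plus strand) and Lamb1 on chromosome 12 from 31265234 to 31329644 (plus strand). Itgb4 lies on chromosome 11 from 115974709 to 116008412 (plus strand), Itgb8 on chromosome 12 from 119158022 to 119238802 (minus strand), Itgb1 on chromosome 8 from 128685654 to 128733200 (plus strand) and Itga9 on chromosome 9 from 118606690 to 118901003 (plus strand). All 37 members are annotated as protein-coding, and the counts are per gene, with no exon or isoform told apart. Exons of 9 members, Itgb4 and Lama2 among them, overlap a gene on the opposite strand, and exons of 4 members, Itga1 among them, overlap a gene on the same strand. Whether the counting used strand is not given in the sources used here, so the values of these members are uncertain to that extent.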

How the data were processed

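Counts were deposited by the authors in 4 tables that list a UMI count for every gene in every cell, as raw counts. One table each covers the injured beads and injured FACS libraries whole, and one each the cells the authors called mesenchymal among injured and uninjured beads cells. Per the submitters' processing notes the genome build was mm10. The aligner, the counting tool and how mesenchymal cells were predicted are in none of the sources used here. The 1289 injured mesenchymal barcodes all occur in the whole injured table, and 0 of their counts differ. The FACS table lacks 3185 genes of the other tables, which hold 0.4225% of uninjured UMIs. Comparisons with it used the genes it lists.

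Analyses ran in Python 3.11.15 (pandas 2.3.3, scipy 1.17.1, scanpy 1.11.5, scikit-learn 1.9.0, leidenalg 0.10.2, numpy 2.4.6, igraph 0.11.9, matplotlib 3.10.9), and R 4.3.3 with edgeR 4.0.16 (TMM) and DESeq2 1.42.0 (size factors) for other scalings only. Barcodes with at least 200 genes were kept (4111 beads, 1914 FACS), and no doublet caller was run, so doublets remain. Cells were clustered by the Leiden method (2000 variable genes without the members, 30 components, 15 neighbours, resolution 0.8). A cluster was named from its markers if its mean log2 enrichment (10 CPM added) over the lower quartile of clusters was at least 1 and led the next class by 1, and at least 3 markers were seen in 5% of cells. Clusters with more markers of another class among their 10 leading genes stayed unnamed, as did shallow ones.

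Counts were summed per pool. CPM carry exact Poisson intervals and ratios exact conditional binomial intervals, all at 95%. Left out by name are 1 member gene and 1 leading gene of a cluster, which are not reported here, although the member counts and medians include the member. The other members are accounted for: those with at least 50 CPM in a mesenchymal pool or named class are described singly, as are related genes past the size rule. The members and lists were chosen with earlier results of these data known. Gene positions are from GENCODE vM21 and promoter stretches from RefSeq (GRCm38.p6), matched by symbol.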

Additional observations from a re-analysis of the deposited data

Results flagged for a closer look

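Lamb1 differed in direction between mesenchymal subclasses under the same contrast of injured against uninjured cells. Its log2 ratio was -0.19 in endoneurial-like cells, 1.32 in epineurial-like cells and 2.42 in perineurial-like cells. In endoneurial-like cells it had 512 CPM in injured, against 585 CPM in uninjured cells. The difference between the subclasses was not tested, since each pool is 1 library, and the uninjured perineurial-like value rests on 7 UMIs.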

How the results depend on the processing

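Of 65 counts recomputed under another setting, 52 stayed within 1.5 times, and of 157 log2 ratios of members 123 moved by less than counting error, 34 by more, and 0 of the called ones changed sign. Most of the counts that moved further did so under another CPM floor, which leaves the log2 ratios as they are. In injured against uninjured mesenchymal cells, a floor of 10 CPM gave 1 higher (Itga10) and 7 lower members, and no floor 1 and 9, where 10.1% and 6.93% of all genes were higher and 6.90% and 5.10% lower; with 3 subclasses at the same weight 1 was higher (Itga9). At 10 CPM, 9 members were lower in the FACS library, 4 were higher and 4 lower in endoneurial-like cells, and 7 basement membrane genes and 1 adaptor gene (Lims2) were lower. With subclasses by marker score, 1 member was higher in perineurial-like cells (Lamb1). TMM and DESeq2 size factors, which moved all log2 ratios by -0.13 and -0.12, each called 1 adaptor gene (Tenc1, now Tns2) lower, and DESeq2 factors split all genes into 257 higher and 346 lower.

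Under the class rule, giving each cell the class of its highest marker score, without clusters, called 5 members in the beads library, in place of 7. Itga5, Itga9 and Itgax were no longer called and Itgb5 was, where 17% of all genes were called. With at least 500 genes per cell 9 were called (25% of all genes), and with the 4 classes named in both libraries, an alternative chosen after seeing the data, 10 were called in each (31.6% of all genes in the beads and 30.2% in the FACS library). The log2 ratios of Itga1 and Itga9, which were not called, had the opposite sign (-0.52 each, from 10 UMIs or fewer in all) in the 186 injured and 71 uninjured cells without markers of other classes, and that of Itga1 was -0.22 with 3 subclasses at the same weight. The cause was not tested.

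No paired analysis was possible because each group is 1 library. Depth limits small pools: in the FACS neutrophil-like pool 1 UMI is 109.5 CPM, in the uninjured perineurial-like pool 3 UMIs are 21.7 CPM, and a member with 0 UMIs there was not detectable at this depth. Doublets and free RNA were not removed, and their part in low levels was not tested.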

Other observations

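In the FACS library, mononuclear phagocyte-like cells formed 3 clusters with different integrin levels. Itgax had 94.7 CPM in the cluster led by Gpnmb and Fabp5, 103 CPM in the one led by Ccr2 and Retnla, and 3.31 CPM (1 UMI) in the one led by Ccl8 and Pf4. Itgam had 160, 430 and 314 CPM in the same order, and Itgb7 4.16, 56.2 and 3.31 CPM. An unnamed cluster of 43 cells led by Mmp12, Mmp9 and Cxcl3 had higher values of Itgax (414 CPM), Itgam (636 CPM) and Itgb2 (967 CPM) than these 3 clusters. Its Itga4 was 66.3 CPM from 12 UMIs (34.3 to 116), against 87.4, 160 and 103 CPM in them. That interval lies under the one of the Ccr2 cluster and overlaps those of the Gpnmb and Ccl8 clusters. Itgb7 was 22.1 CPM in the unnamed cluster.

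B cell-like and T or NK cell-like cells of the beads library also formed a pair of clusters each. Itga4 had 200 CPM in the B cell-like cluster led by Ly6d and Bank1 and 48.4 CPM in the one led by Ighg1 and Igj. Itgb7 had 421 CPM in the T or NK cell-like cluster led by Cd3g and Il17a and 184 CPM (7 UMIs) in the one led by Gzma and Ccl5, where Itgb2 had 525 CPM (20 UMIs). These are values of 1 library, given after they were seen, with no test.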
